A study of Oryza sativa with 2 samples.

Results

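The potassium and sodium transporter families of rice were examined in leaf RNA of OsEATB transgenic and nontransgenic seedlings. The members are the genes of the rice reference with a symbol or synonym HAK, HKT, AKT or KAT followed by a number. The rule found 33 genes of 39387 in the reference, namely 25 HAK genes, 7 HKT genes, AKT1 and 0 KAT genes. A probe set, the group of short oligonucleotides with which the array reads a transcript, was tied to 24 of them, against 17905 genes in all. Both groups were seedlings of the rice cultivar indica 9311 at the stage of 4 leaves, grown under normal conditions in diluted Murashige and Skoog medium, kept at 28 °C with 14 h of light and 10 h of darkness. One group carried the OsEATB transgene and the other carried none. OsEATB is an ERF-family transcription factor. Its own transcript is not analysed here, so that the group labels have no check from it. The sources used here give neither the promoter that drives the transgene nor the number of transgenic lines. Leaves of 10 plants stood behind each group, and each group was hybridised to 1 array, so that no difference between groups has a replicate check and no test or error between groups can be given.

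HAK proteins carry potassium into cells or out of vacuoles, often together with protons, and some of them work at very low outside potassium. Shaker channels such as AKT1 let potassium in along the membrane voltage. HKT proteins carry sodium, or sodium and potassium, and those in the cells around the xylem take sodium out of the sap before it reaches the leaf. Potassium is the main inorganic cation of leaf cells and drives turgor and stomatal movement, so that plants hold its level high and the level of sodium low there.

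Signals are given on the log2 scale, and a log2 ratio is the transgenic minus the nontransgenic value, so that 1 stands for 2-fold. Each array held 57381 probe sets, and after trimming, the mean linear signal was 500.1 on either. Signals below the 40th percentile of an array were raised to this floor, which was 4.41 for nontransgenic and 4.61 for transgenic leaf. The level filter kept probe sets at or above the array median, 5.16 or 5.32, in at least 1 group. The hybridisation controls, which are added in known amounts before hybridisation, stood higher on the transgenic array by 0.91 on average over 27 probe sets. Every direction given here is therefore relative to the authors' scaling: centred on those controls, the median log2 ratio of all genes moved to -0.92, the split of genes that differed by 2-fold went from 57.7% to 2.98% higher, and HAK18 alone of the passing members stayed above 0. Of 8 leaf photosynthesis genes, 7 read between 13.68 and 16.19, and RBCS1 lay below the floor on both arrays. The root gene NRT2.2 read 5.95 on both arrays. RTS and C6, taken as markers of pollen and panicle, read 4.49 and 5.68 on the nontransgenic array and lay below the floor on the transgenic array. The 3′ minus 5′ difference of control probe sets, a measure of RNA integrity and labelling, was 3.26 and 2.61 for GAPDH, 3.56 and 4.36 for actin and -0.19 and -0.05 for ubiquitin in nontransgenic and transgenic leaves, in log2. The part of these differences in the results was not tested. In leaf tissue, fewer cells of a type and less RNA per cell cannot be told apart.

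Of the 24 members with a probe set, 20 passed the level filter. On the authors' scaling, HAK10, HAK22 and HKT1;5 were lower by 2-fold or more in the transgenic leaves and HAK18 was higher by 2-fold or more, while the other 16 differed by less. These 4 were 20% of the 20, beside 10.5% of all 15192 passing genes. The 1 higher member was 5% of the 20, beside 6.04% of all passing genes. The 3 lower members were 15%, beside 4.43% of all genes, but 1 of the 3, HAK22, was read in opposite directions by its probe sets. With HAK22 read by its dimmer probe set, 2 members were lower and 2 higher, 10% each, and the member median given next became 0.19. The median log2 ratio of the members was 0.09, beside -0.01 for all genes, and 12 of the 20 lay above 0, which is 60% beside 48.6%.

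**Figure D1:**
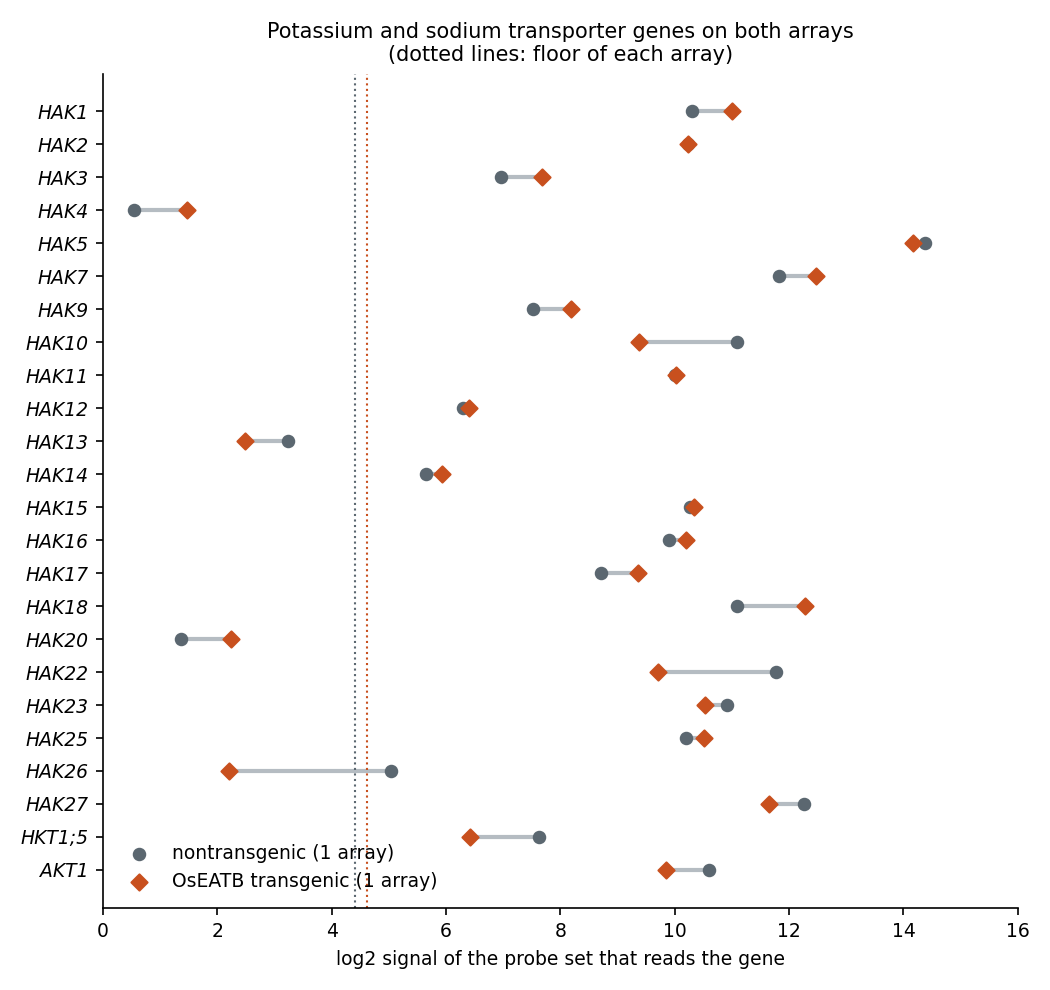
Log2 signal (horizontal axis) of the 24 members with a probe set on the nontransgenic array (circles) and the OsEATB transgenic array (diamonds), 1 array each and no error bars. HAK10, HAK22 and HKT1;5 have the diamond clearly to the left, HAK18 has it to the right, and HAK4, HAK13 and HAK20 lie left of the dotted floor lines on both arrays. HAK26, which missed the level filter, also has the diamond far to the left, but below the floor.

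Ratios of 2-fold were unevenly spread over signal levels. All passing genes were put into 4 groups of equal size by brightness, and 28.9% of the dimmest group differed by 2-fold or more, 8.21% of the next, 3.29% of the third and 1.5% of the brightest. HKT1;5 lay in the dimmest group, HAK10 and HAK22 in the third and HAK18 in the brightest. In the brightest and the third group together, 7 of 14 members had a log2 ratio within 0.5 of 0, which is 50%, beside 87.4% of 7596 genes. The median in those groups was 0.01 for the members and 0.00 for all genes. The share within 0.5 depends on the probe set used. As means over passing probe sets, HAK1, HAK7 and HAK22 came to 0.44, 0.29 and -0.12, for HAK22 from opposite readings. HAK10, HAK18, HAK27 and AKT1 were outside 0.5. HAK18, HAK27 and AKT1 have a single probe set each, so that taking means could not change them. Both probe sets of HAK10 share a source sequence. All genes were not counted by means over probe sets.

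**Figure D2:**
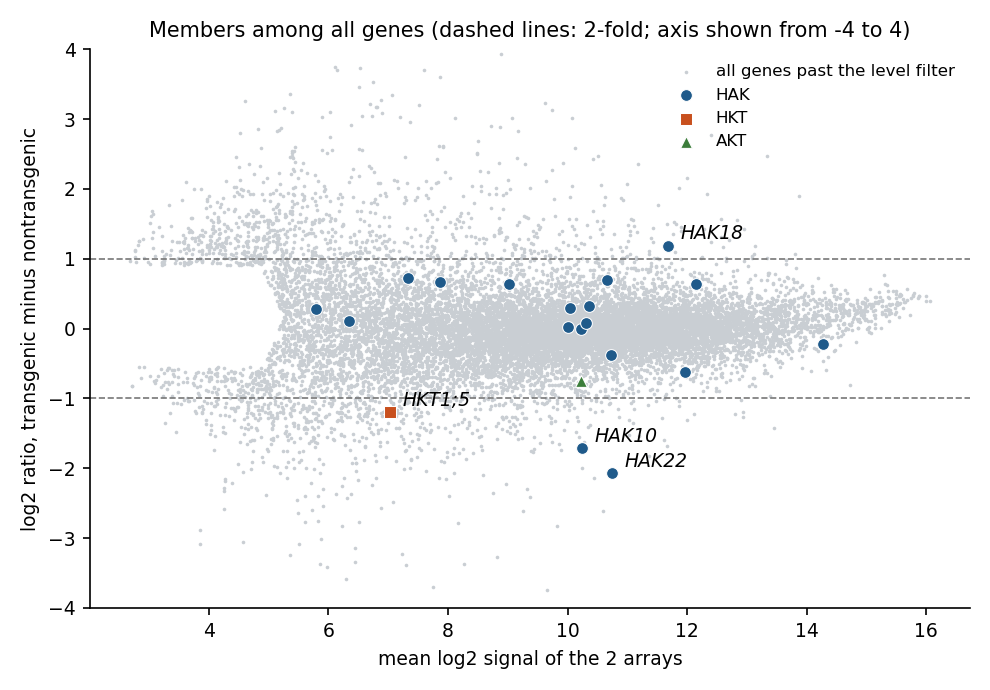
Log2 ratio (vertical axis) against mean log2 signal of both arrays (horizontal axis) for all passing genes (grey) and the 20 passing members (coloured by family), on the authors' scaling. HAK10 and HAK22 lie below the grey cloud at their signal, HAK18 lies at its upper edge, and HKT1;5 lies where the cloud is wide.

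HAK10, whose protein sits in the vacuolar membrane and moves potassium with low affinity, had a signal of 2187 in nontransgenic and 666 in transgenic leaves. In log2 these are 11.09 and 9.38, 3.28-fold lower with the transgene. A second probe set made from the same source sequence read 9.91 and 8.32, 3.02-fold lower. Both readings were far above the floor on both arrays, and they differed from each other by 0.12. Since they share a source sequence, they are not independent of each other. In the third brightness group, 1.47% of genes were 2-fold lower. Of 90 genes with several passing probe sets whose brightest was 2-fold lower, the next was 2-fold lower as well in 38.

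HAK22 had the lowest ratio of the passing members on 1 probe set and the highest of all member probe sets on the other. The brighter one read 11.77 in nontransgenic and 9.71 in transgenic leaves, 4.19-fold lower. It is of a kind that may hybridise to several transcripts. The dimmer one, with no such mark and made from another source sequence, read 7.05 and 8.86, 3.53-fold higher. The readings lie 3.88 apart on the log2 scale. The scatter between probe sets of 1 gene was 0.35 at the brightness of the brighter and 0.56 at that of the dimmer. It is stated per probe set, so that the scatter of a difference between them is larger. Opposite 2-fold readings were found in 16 of the 181 genes whose brightest probe set differed by 2-fold. No direction can be given for HAK22.

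HKT1;5, the sodium transporter of the SKC1 salt tolerance locus, which unloads sodium from the xylem, was the 1 HKT gene with a probe set. It had a signal of 197 without and 86.0 with the transgene, 2.29-fold lower. These log2 signals of 7.62 and 6.43 come from a single probe set in the dimmest group of genes, where 12% were 2-fold lower. The scatter between probe sets of 1 gene was 0.56 at this brightness, below the log2 ratio of -1.20, but that scatter leaves out the spread between plants and between hybridisations. With a pseudocount of 50 the log2 ratio was -0.86.

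AKT1, the inward potassium channel that takes part in root potassium uptake, stood at 10.60 in nontransgenic and 9.85 in transgenic leaves. Its log2 ratio of -0.75 is in size below 2-fold and above the scatter of 0.35 between probe sets at this brightness. That scatter leaves out the spread between plants and between hybridisations. AKT1 was read by 1 probe set, which may hybridise to several transcripts.

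HAK18, which has been tied to the return of potassium through the phloem, was the 1 member at least 2-fold higher. It had a signal of 2179 without and 4958 with the transgene, 2.28-fold higher. The log2 signals were 11.09 and 12.28, both bright, from a single probe set without a mark of cross-hybridisation. In the brightest group of genes, 1.03% were 2-fold higher. Centred on the hybridisation controls, its log2 ratio was 0.28.

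A further 5 HAK genes were between 1.5-fold and 2-fold higher on the authors' scaling, and all 5 were below 0 when centred on the hybridisation controls. HAK1, a high-affinity transporter for uptake of potassium by roots, stood at 10.31 in nontransgenic and 11.01 in transgenic leaves. Its dimmer probe set read 9.19 and 9.37, so that the log2 ratio was 0.70 on 1 and 0.17 on the other. Both HAK1 probe sets are of a kind that may hybridise to several transcripts. HAK7, a low-affinity relative of HAK10, stood at 11.82 and 12.46. Its dimmer probe set, which may hybridise to several transcripts, read 8.01 and 7.94, and the sign of its log2 ratio of -0.07 was opposite to the 0.64 of the brighter. HAK17 was the member whose probe sets differed least: they gave log2 ratios of 0.64 and 0.69, at signals of 8.71 and 9.35 on the brighter. HAK9, which has been tied to seed germination under salt stress, stood at 7.53 and 8.19. HAK3 stood at 6.97 and 7.68 on a probe set that may hybridise to several transcripts, and its other probe set lay below the floor on both arrays. With HAK18 these made 6 of 20 members at least 1.5-fold higher, beside 12% of all genes, and 5 of 20 were at least 1.5-fold lower, beside 11.6%. At 3-fold, HAK10 and HAK22 were lower, 2 of 20 beside 1.2% of all genes, and 0 members were higher, beside 2.07%. With HAK22 read by its dimmer probe set, 7 members were higher and 4 lower at 1.5-fold, and 1 was higher and 1 lower at 3-fold.

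**Figure D3:**
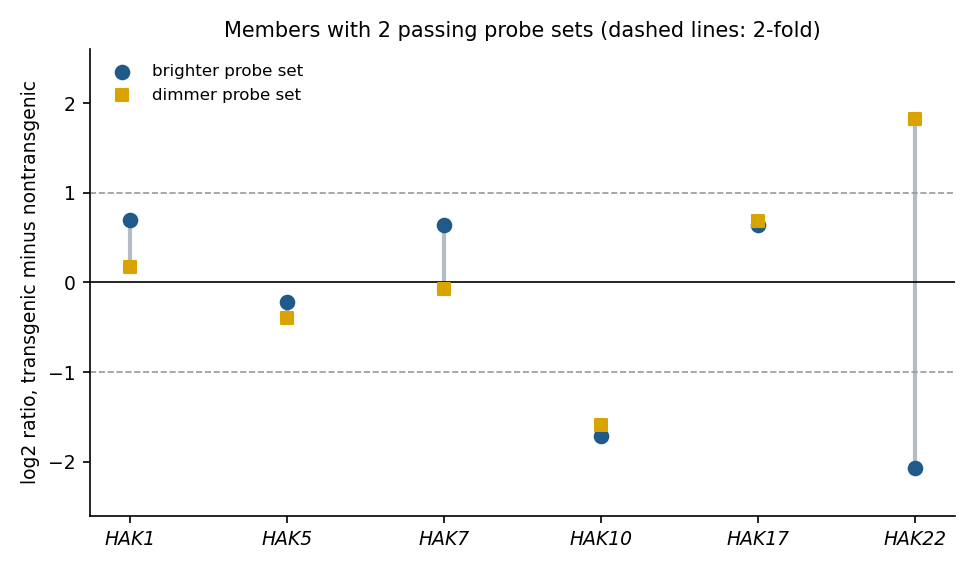
Log2 ratio (vertical axis) on the brighter (circles) and the dimmer (squares) probe set of the 6 members with both past the level filter, on the authors' scaling; dashed lines mark 2-fold. HAK10 is lower on both, HAK5 and HAK17 lie close together, and HAK22 is -2.07 on the one and 1.82 on the other.

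Probe sets thus gave a check within the arrays for 6 members. The sign was the same in HAK1, HAK5, HAK10 and HAK17 and opposite in HAK7 and HAK22. For HAK10 the probe sets share a source sequence, so that their same sign is no independent check. Over all 2414 genes with several passing probe sets, the sign was the same in 60.1%.

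HAK5, which moves potassium from root to shoot at low supply, was bright on both arrays, at 14.38 in nontransgenic and 14.17 in transgenic leaves. Its second probe set read 10.21 and 9.81, and the log2 ratios of -0.22 and -0.40 had the same sign. HAK16, which acts in the same movement, stood at 9.90 and 10.19. HAK27 lies next to HAK16 in the reference with 0 genes between them, and it stood at 12.27 and 11.65. The neighbours thus had log2 ratios of opposite sign, 0.29 for HAK16 and -0.62 for HAK27, both under 2-fold. HAK19 and HAK20 are also near each other, with 1 gene between them, but HAK19 is not analysed here and HAK20 lay below the floor.

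HAK12, which in rice roots takes sodium out of the xylem sap, as HKT1;5 does, had signals of 78.2 and 84.4 in nontransgenic and transgenic leaves, a log2 ratio of 0.11. Both signals were dim. The ratio of HKT1;5 thus had no counterpart of like size in HAK12, though the difference between the ratios was not tested.

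The remaining passing members had log2 ratios between -0.38 and 0.32. HAK2 stood at 10.23 on both, HAK11 at 10.00 and 10.03, and HAK15 at 10.27 and 10.34. HAK25 stood at 10.19 and 10.51 and HAK14, a dim gene, at 5.65 and 5.93. HAK23 stood at 10.91 in nontransgenic and 10.53 in transgenic leaves. HAK2, HAK15 and HAK23 were read by a single probe set each, of a kind that may hybridise to several transcripts, as were 7 of the 20 passing members by the probe set used for them.

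The 4 members with a probe set that missed the filter were HAK4, HAK13, HAK20 and HAK26. HAK4, HAK13 and HAK20 were below the floor on both arrays and have no ratio. HAK26 read 5.03 on the nontransgenic array, below its median, and lay below the floor on the transgenic array. The other 9 members, HAK6, HAK19, HAK24, HKT1;1, HKT1;3, HKT1;4, HKT2;1, HKT2;3 and HKT2;4, are not analysed here.

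Of 12 genes in a list of other genes of potassium and sodium balance, 9 had a probe set and all 9 passed the filter; 1 was 2-fold higher and 1 was 2-fold lower, each 11.1% of the 9, beside 6.04% and 4.43% of all genes. Single genes make up these shares, and neither gene was at 2-fold with a pseudocount of 50. The list median was -0.04. CIPK23, the kinase that activates AKT1 together with the calcium sensor CBL1, had a signal of 2038 without and 4092 with the transgene, 2.01-fold higher. Its second probe set read 11.22 and 11.14, a log2 ratio of -0.08, so that the higher reading rests on 1 of its 2 probe sets. TPKB, also named KCO2, a potassium channel of small vacuoles, was 2.21-fold lower from dim signals of 7.32 and 6.17. Its relative TPKA, also named KCO1, stood at 11.15 and 10.51.

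CIPK24, the kinase that activates sodium export, stood at 11.41 in nontransgenic and 11.37 in transgenic leaves. Its calcium sensors CBL4 and CBL10 had log2 ratios of 0.51 and 0.42, under 2-fold and little above the scatter of 0.35 between probe sets at this brightness. That scatter leaves out the spread between plants and between hybridisations. The vacuolar cation channel TPC1 stood at 12.35 and 12.17. TPK2 and TPK3 had log2 ratios of 0.41 and -0.57.

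**Figure D4:**
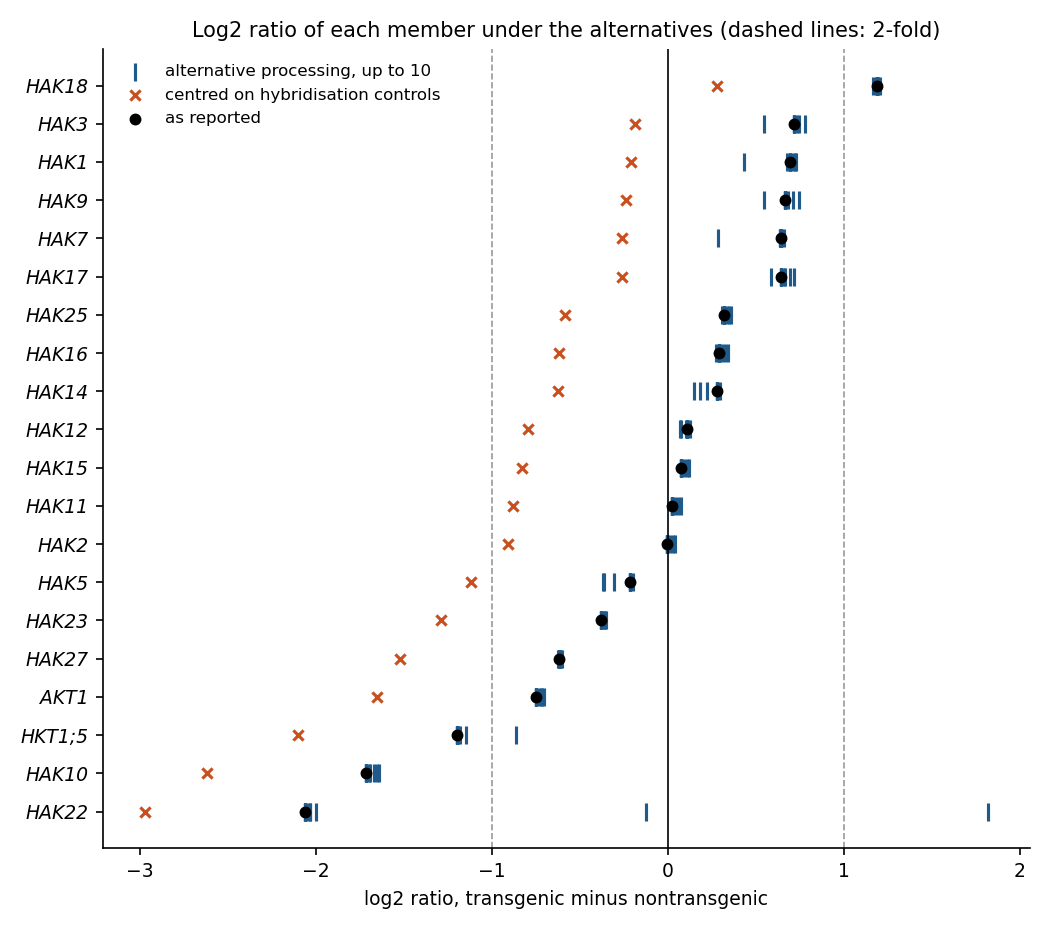
Log2 ratio (horizontal axis) of the 20 passing members as reported (dots), under up to 10 alternative ways of processing (bars) and centred on the hybridisation controls (crosses). HAK10 and HAK18 keep their side of the dashed 2-fold lines in all 10 alternatives, HAK22 ranges from -2.07 to 1.82, and the crosses shift every member to the left. For HAK18, only the alternatives of scaling and pseudocount could change the value. For HAK10, the mean over its probe sets could as well, but these share a source sequence.

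Across the 10 alternatives, HAK10 had log2 ratios from -1.72 to -1.64 and HAK18 from 1.17 to 1.20. HAK10 lay above every floor and filter, so that only scaling, pseudocount and the mean with its second probe set could move its value. That second probe set shares its source sequence. HAK18 was read by 1 probe set above every floor and filter. Changes of floor, filter or choice of probe set therefore could not move its value. HKT1;5 stayed 2-fold lower in 8 of the 9 alternatives in which it passed, but its value, too, could change only with the scaling or the pseudocount. Centred on the hybridisation controls, 7 of 20 members were at least 2-fold lower and 0 higher, beside 6274 and 193 of 15192 genes. The member median was then -0.81, beside -0.92 for all genes. This centring takes the same value from every log2 ratio, so that members and all genes shift alike by construction. HAK10 then had a log2 ratio of -2.62.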

How the data were processed

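Leaf RNA of 2 groups was measured on 1-colour oligonucleotide arrays, 1 array a group. Per the labels' protocols, total RNA was purified on columns, and a 3′ in vitro transcription kit gave biotin-labelled cRNA. The values the authors deposited are log2 signals, and the submitters' processing notes name MAS5. The sources used here give no version, scaling target or detection call. The log2 scale follows from the linear trimmed means (2% at each end), which were equal on both arrays. The number of arrays limits the precision. Columns of samples without a group numbered 0.

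Control probe sets (187) were set apart. Of the others, 22436 had 1 gene in the platform's table, 95 several and 34663 none. All 17905 genes were found in the reference (assembly ASM3414082v1), used for names and order only. Each signal was raised to the floor, and each gene was read by its brightest passing probe set. Scatter between probe sets of 1 gene was 1.4826 times the median absolute deviation of the difference between the 2 brightest, divided by the square root of 2. No test was run. Members and lists were chosen with earlier results of these data known. All members with a probe set are named. Of the other list, genes at 2-fold and up to 6 further bright genes are named, and TPK3 to complete it. A photosystem gene with the synonym OSA15 was left out of that list. The steps were tested on simulated data. Python 3.11.15, numpy 2.4.6, pandas 2.3.3 and statsmodels 0.14.6 were used. Alternatives covered the floor, filter, scaling (lowess fraction 0.3), pseudocount, threshold and choice of probe set.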

Additional observations from a re-analysis of the deposited data

How the results depend on the processing

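Of 189 log2 ratios of passing members over the 10 alternatives, 186 moved by less than the scatter between probe sets. Many of these could not move. Changes of floor or filter leave a member above the floor as it was. Choices of probe set leave one with a single probe set as it was. The count is therefore no measure of how stable the ratios are. The exceptions were HAK7 and HAK22 as means over passing probe sets, at 0.29 and -0.12. HAK22 was also an exception, at 1.82, with the probe sets left out that may hybridise to several transcripts. Without such probe sets 2 of 14 members were 2-fold higher and 2 were 2-fold lower, beside 875 and 616 of 13351 genes. The member median was 0.28, beside -0.01 for all genes, and fewer genes entered. At 1.5-fold 6 members were higher and 5 lower, and at 3-fold 0 were higher. In the other list, 0 genes were 2-fold lower with the filter at the 75th percentile, 0 higher and 0 lower with the pseudocount, and 0 higher as means over probe sets. The counts of all genes were 297 higher and 218 lower with that filter and 420 and 312 with the pseudocount, against 918 and 673. Centring on the hybridisation controls, chosen after seeing the data, gave 0 of 20 members higher and 7 lower. It gave 0 and 4 of the 9 genes of the other list, and 193 and 6274 of 15192 genes. The member median was -0.81, beside -0.92 for all genes. The cause of this shift was not tested. With HAK22 read by its dimmer probe set, also chosen after seeing the data, 2 members were higher and 2 lower, with a member median of 0.19. No paired analysis was possible because each group has 1 array. Dim signals limit HKT1;5, HAK12, HAK14 and HAK3. With 1 array a group, the spread between plants is not known.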
